A study of Homo sapiens with 34 samples.

Results

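Acetylation of histone H3 at lysine 27 (H3K27ac) was called at 100382 merged regions in KELLY neuroblastoma cells, and 2715 of them had a peak in each of the 3 DMSO libraries and in none of the 3 doxycycline libraries. These 2715 lost regions were 2.7% of all merged regions. They were chosen by their H3K27ac peak calls alone, by pooling the 6 H3K27ac peak lists on chromosomes 1 to 22 and X and merging intervals that shared 1 bp or more. A total of 28618 regions had a peak in all 6 libraries (retained regions), and 602 had a peak in the 3 doxycycline libraries alone (gained regions). KELLY is an established human line with amplified MYCN, and all cells carried an inducible short hairpin RNA (shRNA) against the corepressor RUNX1T1. Cells received the solvent DMSO or doxycycline, which switches the shRNA on, for 72 h, and every mark had 3 libraries per treatment. All libraries came from one line, no library with doxycycline and without the RUNX1T1 shRNA was compared here, and the peak lists hold no measure of RUNX1T1, so effects of the drug and of the knockdown cannot be told apart. The labels do not say whether replicates were separate cultures, so the spread between them may be technical.

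H3K27ac marks active promoters and enhancers. Enhancers in use usually carry H3K27ac together with monomethylation of lysine 4 (H3K4me1), promoters carry trimethylation (H3K4me3), dimethylation (H3K4me2) is found at both, and H3K27me3 marks Polycomb repression. An enhancer can keep H3K4me1 after acetylation is gone, a form often called primed. In adrenergic neuroblastoma cells enhancers are bound by factors such as HAND2 and GATA3, and RUNX1T1 belongs to the ETO family of corepressors, which recruit histone deacetylases.

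The cells carried the promoter marks of the adrenergic state. The adrenergic markers HAND2, GATA3, ISL1, TH and DBH had both H3K27ac and H3K4me3 at a promoter in each of the 12 libraries of these marks. Of 8 markers of other cell types, 5 (PTPRC, CD3E, CDH1, PECAM1 and CDH5) had neither mark in any library, while EPCAM and PDGFRB had both in all 12. COL1A1 had H3K4me3 in all 6 libraries and H3K27ac in 3 DMSO libraries and 1 doxycycline library. The H3K27ac libraries held 72.2 to 77.7 M reads in DMSO and 66.3 to 74.4 M in doxycycline, and 55153 to 71603 against 48171 to 60292 peaks. Their inputs (unenriched chromatin) held 74.5 to 81.5 M and 57.0 to 63.4 M reads, and since MACS2 scales the larger of each pair to the smaller, doxycycline peaks were called on 57.0 to 63.4 M reads and DMSO peaks on 72.2 to 77.7 M. In these lists the treatment cannot be told apart from this gap in depth, and the inputs were shared between marks.

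The sequence about the centre of a lost region is shown for 3 of them, as 300 bases of the plus strand of hg38. The first belongs to the region with the strongest H3K27ac in DMSO. The others are the strongest regions that hold the letters AGATAA, the core of GATA factor sites, among the 10 strongest and among those that also lost H3K4me1. They were chosen after the share of windows with these letters had been seen. Capitals mark AGATAA on either strand (TTATCT on the minus strand), the MYC-type E-box CACGTG and the AP-1 letters TGANTCA.
Intergenic region nearest DPH5, chr1:101098766-101099065: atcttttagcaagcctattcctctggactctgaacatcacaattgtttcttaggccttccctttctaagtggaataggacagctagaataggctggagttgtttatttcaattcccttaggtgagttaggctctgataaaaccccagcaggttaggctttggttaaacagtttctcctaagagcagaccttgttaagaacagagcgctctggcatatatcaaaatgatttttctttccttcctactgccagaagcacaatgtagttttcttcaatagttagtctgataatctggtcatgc
Region in TRIM67, nearest start site C1orf131, chr1:231200557-231200856: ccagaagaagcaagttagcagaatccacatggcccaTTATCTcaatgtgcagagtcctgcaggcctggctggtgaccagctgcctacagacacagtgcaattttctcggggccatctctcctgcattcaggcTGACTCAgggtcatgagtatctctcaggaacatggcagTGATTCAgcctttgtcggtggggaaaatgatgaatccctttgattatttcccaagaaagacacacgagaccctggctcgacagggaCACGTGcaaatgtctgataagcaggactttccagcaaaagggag
Intergenic region nearest GNPDA2, chr4:45248116-45248415: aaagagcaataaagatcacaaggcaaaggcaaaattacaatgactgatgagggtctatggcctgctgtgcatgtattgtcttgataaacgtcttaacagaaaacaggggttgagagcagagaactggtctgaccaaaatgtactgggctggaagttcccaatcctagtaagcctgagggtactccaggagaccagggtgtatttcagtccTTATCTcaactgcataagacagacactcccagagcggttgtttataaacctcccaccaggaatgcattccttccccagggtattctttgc
The DPH5 window held none of the capitalised motifs. The GATA letters stood at bases 37 to 42 of the TRIM67 window and 211 to 216 of the GNPDA2 window, on the minus strand in both. The TRIM67 window also held the AP-1 letters at bases 133 to 139 and 171 to 177 and CACGTG at bases 257 to 262.

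Lost regions were weak in DMSO. The values that follow come from the peak lists that chose the regions and are a description, with no test. The median of the highest −log10 q-value in a region was 3.23, 2.26 and 2.31 in DMSO libraries 1, 2 and 3 at lost regions, against 19.5, 13.4 and 9.91 at retained regions. The median fold enrichment over input was 2.54, 2.28 and 2.36 at lost and 4.62, 3.96 and 3.45 at retained regions. The interquartile ranges of lost and retained regions did not overlap on the q-value scale in any of the 3 libraries. The median width was 1433 bp, against 3265 bp for retained regions.

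**Figure D1:**
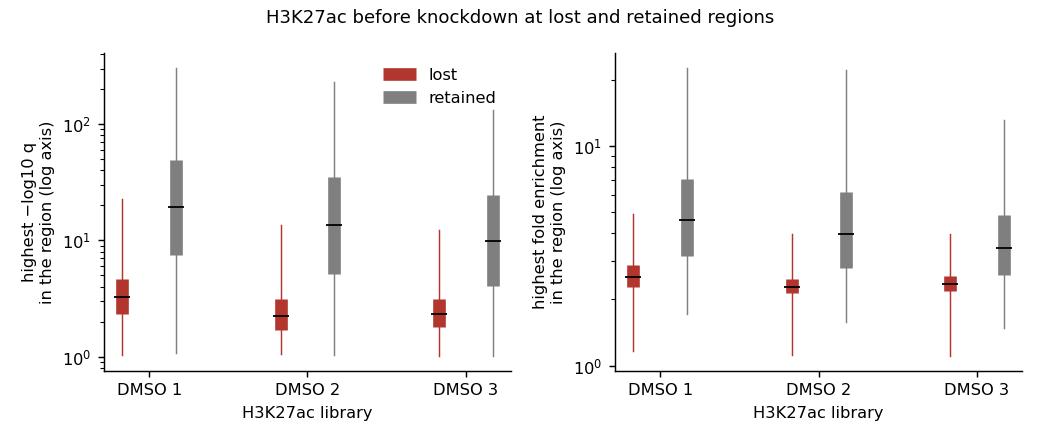
H3K27ac in each DMSO library at lost and retained regions, as the highest −log10 q-value (left) and the highest fold enrichment (right) in a region, both on log axes. Boxes span the quartiles, black marks are medians and thin lines run from the lowest to the highest region; lost medians lie at 2.26 to 3.23 on the q-value scale and retained medians at 9.91 to 19.5.

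Few lost regions were strong in every DMSO library. A −log10 q-value of 3 or more in all 3 was reached by 317 of the 2715 (11.7%), of 5 or more by 48 (1.77%), and of 10 or more by 0, against 80.2%, 66.3% and 48.6% of retained regions. Just outside the rule lay 2647 regions with a peak in 3 DMSO libraries and 1 doxycycline library, with a median mean −log10 q-value over DMSO libraries of 2.97, and 5030 regions with a peak in 2 DMSO libraries and no doxycycline library, with 2.08. Lost regions had 2.67, regions called in 3 DMSO and 2 doxycycline libraries 3.35, and retained regions 14.3. When all 6 lists were cut to the same number of peaks there were 1720 lost and 1145 gained regions, and with only peaks of −log10 q-value of 3 or more in all lists there were 1370 and 341. Of these 1370, 317 overlapped the 2715 lost regions.

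The loss lay mainly outside promoters. Introns held 1246 of the lost regions (45.9%, exact binomial 95% interval 44.01 to 47.8) and intergenic sequence 974 (35.9%, 34.1 to 37.7). Promoters, the 1 kb either side of a protein-coding start site, held 150 (5.52%, 4.70 to 6.45), coding exons 128 (4.71%), untranslated exons 30 (1.10%) and other exons 187 (6.89%). Among retained regions promoters held 46.6%, introns 21.8% and intergenic sequence 15.1%. Among gained regions these shares were 10.96%, 48.3% and 21.3%. Among all merged regions they were 20.3%, 43.3% and 21.2%, so the intron share of lost regions was near that of all regions. The intervals of the intergenic share did not overlap between gained and lost regions (18.1 to 24.8 against 34.1 to 37.7). Of 14226 promoter regions with a peak in all 3 DMSO libraries, 1.05% were lost, against 7.19% of the 37735 such regions of every place. These intervals cover the counting of regions only, and regions of one library are not independent replicates.

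**Figure D2:**
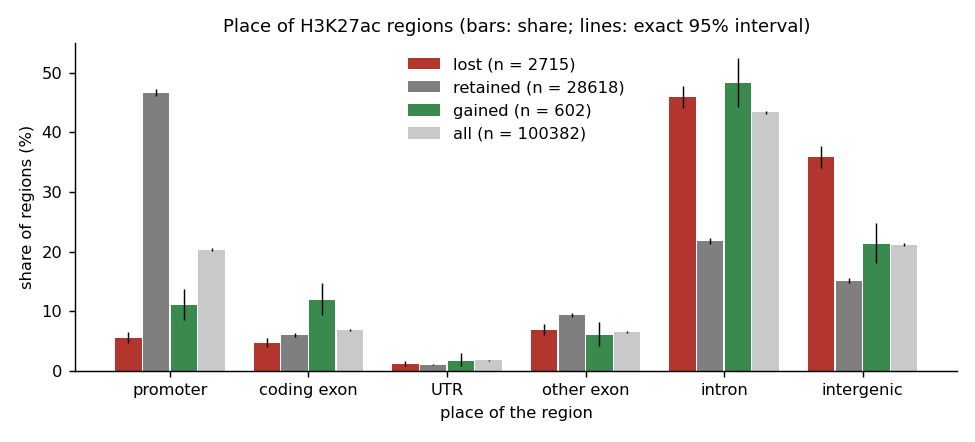
Share of H3K27ac regions (y axis, percent) in 6 kinds of place for lost, retained, gained and all merged regions, with exact 95% binomial intervals as lines. Promoters hold 5.52% of lost and 46.6% of retained regions, and intergenic sequence holds 35.9% of lost and 15.1% of retained regions.

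The median distance from a lost region to the nearest protein-coding start site was 45.4 kb, against 3.11 kb for retained and 20.4 kb for gained regions, and 945 lost regions (34.8%) lay over 100 kb away. Most lost regions were not close to a remaining peak. The median gap to the nearest H3K27ac peak of any doxycycline library was 11.9 kb, with 3.06% of lost regions within 1 kb and 29.0% within 5 kb of one. Gained regions lay closer to peaks of the other treatment, with a median gap of 4.40 kb to the nearest DMSO peak.

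The share of regions lost differed between chromosomes. On chromosome 4, 167 of 1422 regions with a peak in all 3 DMSO libraries were lost (11.7%, exact binomial 95% interval 10.1 to 13.5), and on chromosome 13 it was 99 of 929 (10.7%). The lowest shares were on chromosome 19, with 25 of 1455 (1.72%, 1.11 to 2.53), chromosome 22 (2.43%) and chromosome 17 (3.18%). Promoters made up 70.1% of these regions on chromosome 19, 46.6% on chromosome 17 and 39.4% on chromosome 22, against 33.4% on chromosome 4 and 25.3% on chromosome 13. Other chromosomes did not follow this order. Promoters made up 52.0% on chromosome X and 46.9% on chromosome 16, and 6.52% of regions were lost on each, near the 7.19% of all. The part of promoter content in the order of chromosomes was not tested.

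The windows of lost regions were rich in A and T and in the GATA letters. In the 300 bases about the centre the median GC content was 44% at lost, 47.0% at gained and 53.7% at retained regions, and the mean number of CpG dinucleotides was 3.53, 4.90 and 11.8. With promoters left out, the median GC content was 43.7%, 46.2% and 48.3%. AGATAA was found on either strand in 781 of 2565 lost windows outside promoters (30.4%), and in 18.8% of gained and 18.3% of retained windows outside promoters. With promoters included, it was found in 17.6% of the windows of all 100380 merged regions whose sequence held no unknown base. Among regions outside promoters with a peak in all 3 DMSO libraries the share ran from 18.3% where all 3 doxycycline libraries had a peak through 21.4% with 2 and 23.5% with 1 to 30.4% with none. Outside promoters, regions with no doxycycline peak had 25.6% where 2 DMSO libraries had a peak and 21.0% where 1 had it. A raised share was thus not particular to the lost regions.

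Because these letters are themselves rich in A and T, the shares were compared within classes of GC content. From 40 to 45% GC the letters were found in 205 of 624 lost windows (32.9%, exact binomial 95% interval 29.2 to 36.7) and in 26.6% of retained windows (24.9 to 28.3). From 50 to 55% GC the shares were 23.8% (19.1 to 28.9) and 12.96% (11.7 to 14.3). The share was higher at lost than at retained regions in all 6 classes, the smallest gap being at 55% GC or more, with 7.69% against 5.84%. The motif was singled out after its share had been seen, and the intervals cover the counting of regions, which are not replicates, so this is a description and no test. In the gained regions the share from 50 to 55% GC was 11% of 100 windows (5.62 to 18.8).

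**Figure D3:**
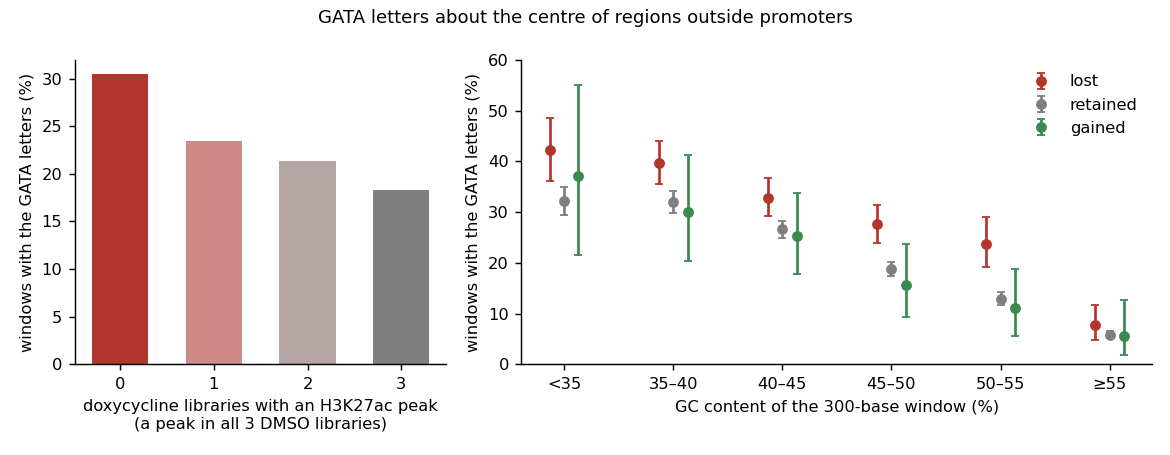
Share of 300-base windows outside promoters that hold the GATA letters (y axes, percent). Left, regions with an H3K27ac peak in all 3 DMSO libraries by the number of doxycycline libraries with a peak, from 30.4% with none to 18.3% with 3; right, lost, retained and gained regions by the GC content of the window, with exact 95% binomial intervals.

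Other motifs were searched in the same windows outside promoters. The HAND2-type E-box CATCTG was found in 26.3% of lost, 24.6% of gained and 23.2% of retained windows, the general E-box CANNTG, which includes it and CACGTG, in 79.6%, 82.8% and 80.5%, and the RUNX letters TGTGGT in 18.4%, 20.5% and 18.3%. The AP-1 letters TGANTCA were found in 9.90% of lost and 10.3% of retained windows and in 19.03% of gained windows. The MYC-type E-box CACGTG was found in 2.26% of lost, 3.17% of gained and 4.93% of retained windows. The motifs were searched on both strands, and a match is not evidence that a factor was bound.

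In DMSO most lost regions had the marks of enhancers. H3K4me1 without H3K4me3 or H3K27me3, each called in all 3 DMSO libraries, was found at 2229 of the 2715 (82.1%), H3K4me1 with H3K4me3 at 89 (3.28%) and H3K27me3 at 8 (0.295%). A mark called in only 1 or 2 libraries counted as absent. These combinations were not counted at other regions. H3K4me1 by itself was found at a mean of 92.8% of lost, 95.1% of retained and 65.3% of all merged regions in DMSO. At regions with H3K27ac in 3 DMSO libraries and 1 doxycycline library it was 92.2%. Of the 2229, 1477 (66.3%) kept H3K4me1 in all 3 doxycycline libraries, 665 (29.8%) in 1 or 2, and 87 (3.90%) in none, so H3K4me1 was still called in at least 1 doxycycline library at nearly all of them. Among the 2229, H3K27me3 was called in all 3 doxycycline libraries at 2 and H3K4me3 at 3.

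H3K4me1 was called at fewer of the lost regions in doxycycline. This mark was not used to choose the regions. The peaks of all 4 other marks were, however, called against the same inputs as the H3K27ac lists that chose them. The tests of their shares are therefore not independent of that choice. H3K4me1 was found at 97.5%, 89.6% and 91.2% of lost regions in DMSO libraries 1, 2 and 3 and at 85.7%, 65.4% and 73.7% in doxycycline libraries 1, 2 and 3. Every doxycycline library lay below every DMSO library. The means were 92.8% ± 4.20 and 74.9% ± 10.2 (SD, n = 3 each), a difference of -17.8 percentage points (exact two-sided permutation test over libraries, p = 0.1, the smallest that 3 libraries against 3 can give, adjusted p = 0.2 over 4 marks). At retained regions H3K4me1 was found at 95.1% ± 2.40 in DMSO and 94.4% ± 2.46 in doxycycline, and the difference between lost and retained regions, taken within each library, moved by -17.1 points (exact permutation p = 0.1, adjusted p = 0.2). At the 1370 regions found from H3K27ac peaks of −log10 q-value of 3 or more, a largely different set, the difference was -8.27 points. With only H3K4me1 peaks of that strength it was -19.2 points and the treatments overlapped (exact permutation p = 0.5).

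The same shares were taken at regions with H3K27ac in the same number of libraries, 1 or 2, in each treatment. At these 7336 regions H3K4me1 went from 63.0% ± 7.92 in DMSO to 57.0% ± 7.20 in doxycycline (SD, n = 3 each), so they started from a lower share than lost regions. Set against them, lost regions moved by -11.8 points (exact permutation p = 0.1), a comparison added after the data were seen. At the 602 gained regions H3K4me1 was found at 64.2% ± 8.80 in DMSO and 77.3% ± 4.88 in doxycycline, the opposite direction. Among regions with H3K27ac in all 3 DMSO libraries, the mean H3K4me1 share differed by -9.52 points where 1 doxycycline library had H3K27ac, by -5.54 where 2 had it and by -0.72 where 3 had it. Among regions with H3K27ac in no doxycycline library, it differed by -20.6 points at the 5030 with H3K27ac in 2 DMSO libraries and by -13.1 at the 24767 with it in 1, so a lower H3K4me1 share was not particular to the lost regions. The part of input depth, which all marks of a treatment share, was not tested.

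**Figure D4:**
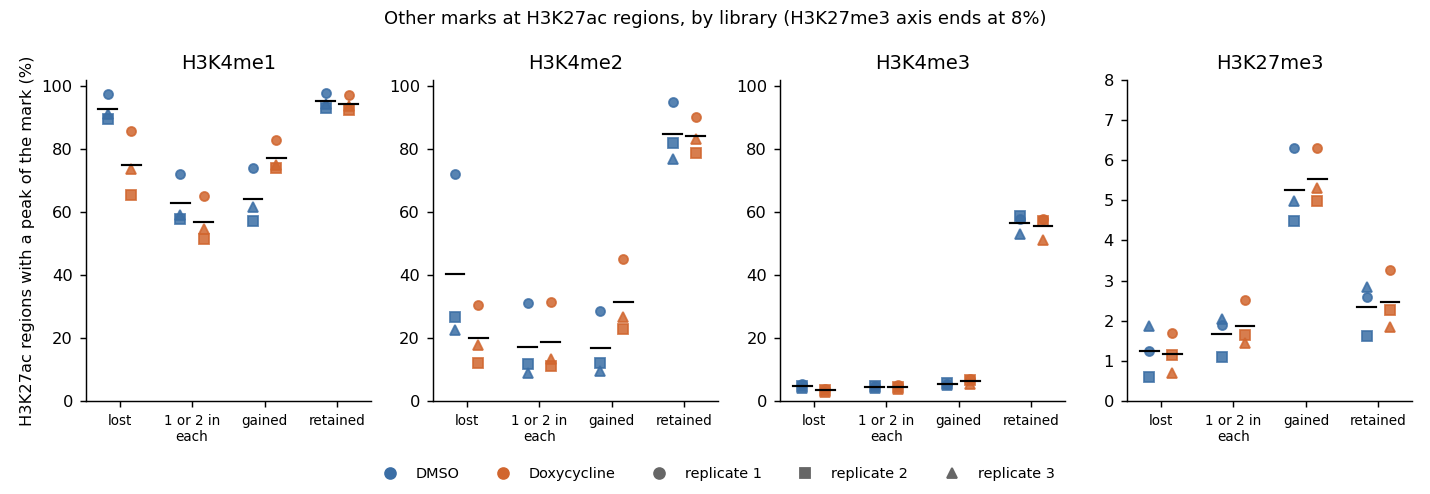
Share of H3K27ac regions with a peak of 4 other marks (y axes, percent) in each library, for lost regions, regions with H3K27ac in the same number of libraries (1 or 2) in each treatment, gained and retained regions; black lines are means, and the H3K27me3 axis ends at 8%. H3K4me1 at lost regions lies at 89.6 to 97.5% in DMSO and 65.4 to 85.7% in doxycycline, while at gained regions its mean goes from 64.2 to 77.3%.

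The strength of H3K4me1 where it stayed is given as a description, since its fold enrichment rests on the same inputs as the H3K27ac calls. At the 1558 lost regions with H3K4me1 in all 6 libraries, its median fold enrichment was 3.35, 2.58 and 2.55 in DMSO and 3.03, 2.59 and 2.62 in doxycycline. At the 25091 retained regions with H3K4me1 in all 6 it was 3.47, 2.83 and 2.62 in DMSO and 3.61, 3.05 and 2.94 in doxycycline. On the log2 scale, lost minus retained was -0.07 ± 0.05 in DMSO and -0.22 ± 0.04 in doxycycline (SD, n = 3 each), a difference of -0.14 with no overlap between the groups. The implied input at lost over retained regions was 0.778, 0.881 and 0.775 in DMSO libraries 1 to 3 and 0.821, 0.866 and 0.815 in doxycycline libraries 1 to 3, higher in doxycycline in replicates 1 and 3, and its part in the difference was not tested.

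H3K4me2 showed the same direction with a wider spread. It was found at 72.1%, 26.7% and 22.5% of lost regions in DMSO and at 30.6%, 12.0% and 17.7% in doxycycline. DMSO library 1 stood far above the others and the treatments overlapped. The mean was 40.4% ± 27.5 in DMSO and 20.1% ± 9.55 in doxycycline (exact two-sided permutation p = 0.3, adjusted p = 0.4), with the doxycycline library lower in 3 of 3 same-numbered pairs. Without DMSO library 1 the difference of -20.3 points became -4.44, and with the H3K4me2 lists cut to equal length it was -13.5. Same-numbered H3K4me2 libraries deviated together, and an exact test of sign flips within the pairs gave p = 0.25, the smallest that 3 pairs allow. Relative to retained regions, where H3K4me2 was found at 84.6% in DMSO and 84.1% in doxycycline, the groups did not overlap. Lost minus retained was -22.99, -55.3 and -54.36 points in DMSO and -59.61, -66.8 and -65.4 points in doxycycline (exact permutation p = 0.1, adjusted p = 0.2), a difference of -19.7 points that was -9.09 without DMSO library 1. At gained regions the mean went from 16.8% to 31.6%, and at regions with H3K27ac in 1 or 2 libraries of each treatment from 17.3% to 18.7%.

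H3K4me3 and H3K27me3 were rare at lost regions. H3K4me3 was found at 5.34%, 4.75% and 4.20% in DMSO and 3.87%, 3.54% and 2.76% in doxycycline. The groups did not overlap, and the difference was -1.38 points (exact permutation p = 0.1, adjusted p = 0.2). Relative to retained regions, with H3K4me3 at 56.5% in DMSO and 55.4% in doxycycline, it was -0.33 points (exact permutation p = 0.9, adjusted p = 0.9). Its sign turned when single libraries were left out. On the log2 odds scale (share with a peak over share without) it was -0.46 (exact permutation p = 0.1). Against regions with H3K27ac in 1 or 2 libraries of each treatment it was -1.27 points, and against gained regions -2.26 (exact permutation p = 0.1 each). Both comparisons were added after the data were seen. H3K27me3 was found at 1.25%, 0.589% and 1.88% in DMSO and 1.69%, 1.14% and 0.700% in doxycycline (exact permutation p = 0.9, adjusted p = 0.9), so no replacement of acetylation by this repressive mark was detectable in the shares. The peak caller's fragment length estimate for H3K27me3 was 105 to 112 bp in 3 of the 6 libraries and 256 to 280 bp in the others.

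Complete loss of a further mark was uncommon. H3K4me1 went from all 3 DMSO libraries to none at 87 lost regions (3.20%), where 1.2% of all merged H3K27ac regions did so, and at 0.164% of retained regions and 0 of 602 gained regions. H3K4me2 did so at 50 (1.84%, against 0.211% of all merged regions) and H3K4me3 at 4 (0.147%, against 0.125%). H3K27me3 appeared in all 3 doxycycline libraries and no DMSO library at 1 lost region, where 0.0279% of all merged regions did so. Counting any decrease, 993 lost regions (36.6%) had H3K4me1 in fewer doxycycline than DMSO libraries and 42 (1.55%) in more, against 18.8% and 7.1% of all merged regions. For H3K4me2 these numbers were 1402 (51.6%) and 126 (4.64%), against 12.7% and 9.05%. Of these 1402, 798 had H3K4me2 in only 1 DMSO library and in no doxycycline library. DMSO library 1 called H3K4me2 at 72.1% of lost regions, against 26.7% and 22.5% in DMSO libraries 2 and 3. No lost region (0 of 2715) lost both H3K4me1 and H3K4me2 in this complete sense. The 87 and 50 regions are too few of 2715 for this 0 to show that the 2 marks were lost at separate places.

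**Figure D5:**
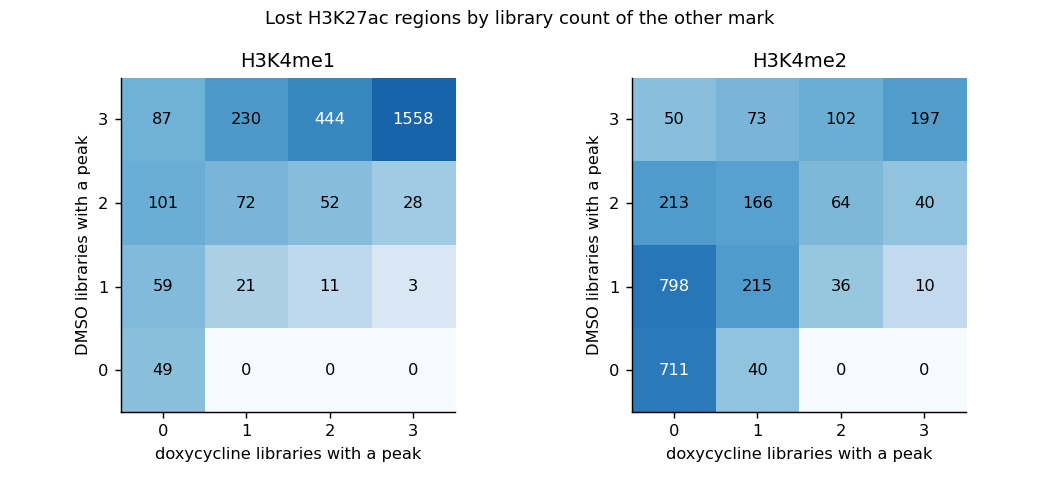
Number of lost H3K27ac regions by the count of DMSO libraries (y axis) and doxycycline libraries (x axis) with a peak of H3K4me1 (left) or H3K4me2 (right), shaded on a log scale. For H3K4me1, 1558 regions lie at 3 and 3 and 87 at 3 and 0; for H3K4me2, 711 regions have no peak in any library and 50 lie at 3 and 0.

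The H3K4me1 share at lost regions was lower in doxycycline in each kind of place. Its mean differed by -18.0 points in introns, by -17.8 points in intergenic sequence and by -15.8 points at promoters. The regions were also split into 4 classes of equal size by their weakest DMSO −log10 q-value for H3K27ac. In the weakest class (1.01 to 1.47) H3K4me1 went from 88.2% to 67.2%, and in the strongest (2.37 to 9.35) from 96.0% to 80.7%, so the lower share in doxycycline was found at both ends. With and without the GATA letters the differences were -17.6 points at 812 and -17.9 points at 1903 lost regions.

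The 10 strongest losses lay between 3.34 and 783 kb from the nearest start site. The region with the highest mean percentile of H3K27ac q-values (chr1:101097753-101100078) was 71.7 kb from the start site of DPH5, an enzyme of diphthamide synthesis. Its fold enrichment was 4.11, 3.19 and 3.64 in DMSO libraries 1 to 3, and no doxycycline peak lay within 33.6 kb. H3K4me1 was called there in 3 DMSO and 2 doxycycline libraries and H3K4me2 in 1 and 0. An intergenic region 76.9 kb from C11orf87 (chr11:109342109-109345294) had fold enrichments of 4.47, 3.96 and 3.34, with H3K4me1 in 3 and 2 libraries and H3K4me2 in 2 and 0. An intronic region whose nearest start site, at 43.7 kb, was that of FREM1, a basement membrane protein (chr9:14954647-14959176), had 3.96, 3.44 and 3.84, and H3K4me1 went from 3 libraries to 1.

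Within CUBN, the endocytic receptor for vitamin B12 bound to intrinsic factor, an intronic region 14.9 kb from a start site (chr10:16890878-16892869) had 4.48, 3.47 and 3.45 in DMSO and H3K4me3 in 3 DMSO and 2 doxycycline libraries. Within LINGO2, a neuronal membrane protein, the lost region (chr9:28177352-28181615) had 4.19, 3.46 and 3.77, with H3K4me1 in all 6 libraries and H3K4me2 in 2 and 0. Regions within KCNAB1, a potassium channel subunit, 8.16 kb from its start site, and over a coding exon of TRIM67, a neuronal ubiquitin ligase, were also among the 10 strongest. A region of 537 bp at 3.34 kb from LCN15, a lipocalin (chr9:136769590-136770126), kept H3K4me1, H3K4me2 and H3K4me3 in all 6 libraries. Of the 10 strongest regions, then, all had H3K4me1 in the 3 DMSO libraries, and the remaining 2 lay 392 kb from SULF1, an extracellular sulfatase of heparan sulfate, and 783 kb from GOT2, a mitochondrial aminotransferase.

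Of the 87 regions that also lost H3K4me1, the strongest was intronic in IFT52, a component of intraflagellar transport, 1.86 kb from a start site (chr20:43605736-43608011). Its H3K27ac fold enrichment was 3.35, 3.18 and 2.64 in DMSO. The next had GNPDA2, at 521 kb, as nearest start site (chr4:45247377-45249153), with 4.37, 3.33 and 2.97, and then came those of BUD13, PJA2 and KCNH1, the last of these in an intron of this voltage-gated potassium channel gene. None of the 5 had H3K4me2 in doxycycline, but in DMSO it had been called in only 1 library at IFT52, GNPDA2 and KCNH1. At BUD13 and PJA2 it was called in no DMSO library. Of the 50 that also lost H3K4me2, the strongest was in an intron of ABHD13 (chr13:108225476-108227173), with 3.89, 3.31 and 3.52, and those nearest to RPAP3, NRXN3 and CCDC54 were also among the 5 strongest. These 4 kept H3K4me1 in all 6 libraries.

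The 4 regions that also lost H3K4me3 included a promoter of DLG2, a scaffold of the postsynaptic density (chr11:83724269-83725100). H3K27ac there had fold enrichments of 2.88, 2.72 and 2.76, H3K4me1 remained in all 6 libraries and H3K4me2 in 2 of 3 doxycycline libraries. The others lay near NAPG, SMYD2 and DPF2. The 1 region that gained H3K27me3 was intergenic, 26.7 kb from ZNF780A (chr19:40117632-40119069), and H3K4me1 there went from 3 libraries to 0.

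Lost promoters seldom carried the promoter mark. Of the 150, H3K4me3 was found at 20%, 19.3% and 18.0% in DMSO and 15.3%, 16.7% and 14.7% in doxycycline, whereas H3K4me1 was found at 84.0 to 95.3% in DMSO. The strongest was at MB, the gene for myoglobin (chr22:35637476-35639357), with H3K27ac fold enrichments of 2.88, 2.78 and 2.68, H3K4me1 and H3K4me2 in all 6 libraries and no H3K4me3. Promoter regions of TUFT1 and RNF43, the latter a ubiquitin ligase that restrains Wnt signalling, were alike in having no H3K4me3. At LRRTM4, a synaptic organiser (chr2:77520927-77522490), fold enrichments were 4.04, 2.79 and 3.36 and the nearest doxycycline peak lay 551 kb away. At SCGN, which encodes the calcium-binding protein secretagogin, H3K4me1, H3K4me2 and H3K4me3 were called in all 6 libraries.

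The 10 genes named here as nearest to most lost regions had 7 to 10 each. In all 6 genes had 7, so the cut at 10 genes fell within a tie. NRXN3, a presynaptic adhesion molecule, was the nearest gene of 10, with 9 of them inside the gene, over chr14:78157893-79705366, and had 10 retained regions besides. H3K4me1 was found at a mean of 100% of these 10 in DMSO and 93.3% in doxycycline, and H3K4me2 at 93.3% and 43.3%. CDH5, GOT2, HAS2 and TENM2 were each nearest to 8. The 8 nearest to CDH5, an endothelial cadherin, lay 201 to 585 kb from its start site and none within it, and the 8 nearest to GOT2 lay 121 to 888 kb away. TENM2, a teneurin that guides neurite contacts, held 6 of its 8. GATA3, a core factor of adrenergic cells, was nearest to 7, all 148 to 1174 kb from its start site, against 23 retained regions. C4orf33, KHDRBS3, MACROD2 and RWDD3 also had 7 each. The part of gene length and of gene spacing in these counts was not tested, and a nearest gene is not shown to be a target.

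Chains of at least 5 lost regions, each at most 100 kb from the next, were found at 10 loci and held 55 regions (2.03% of the lost regions). The chain nearest RWDD3 (chr1:95366756-95671992) held 7 lost regions among 14 with a peak in all 3 DMSO libraries. A chain at SEMA3C (chr7:80772416-80919669), the gene for a secreted semaphorin, held 5 of 9, and another over DNAJC1 and MLLT10 (chr10:21714560-21989815) 5 of 9. A chain near SST, which encodes somatostatin, and RTP4 (chr3:187391388-187523140) held 5 of 7, with H3K4me1 at 100% of them in both treatments.

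In the gene lists examined, lost regions were counted where the gene's start site was the nearest within 50 kb. By this count 1156 of 19962 protein-coding genes (5.79%) had a lost region. Of 46 genes of neuronal differentiation 8 had one (17.4%), of 42 axon guidance genes 5 (11.9%), of 27 adrenergic core factors 4 (14.8%), of 17 genes of the MYC network 3 (17.6%) and of 24 genes of RUNX1T1 and ETO corepressor complexes 4 (16.7%). More of the listed genes than of all genes had a region called in all 3 DMSO libraries by the same distance rule, for example 42 of 46 neuronal genes against 12681 of 19962. Among genes with a region called in all 3 DMSO libraries the share was 9.12% for all genes, 19.05% for neuronal differentiation, 13.5% for axon guidance, 16.0% for adrenergic factors, 20% for the MYC network and 22.2% for corepressor complexes, the last on 4 of 18 genes. Of 34 mesenchymal genes 3 had one, of 26 cell cycle genes 2 and of 15 catecholamine genes 1, which was 14.3%, 8.70% and 7.69% of the members with a region called in all 3 DMSO libraries. Gained regions were nearest to 3 neuronal, 3 axon guidance and 2 adrenergic genes and to none of the other 5 lists, where 1.82% of all protein-coding genes had one.

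Among the axon guidance genes, SEMA3C had 5 lost regions. The one at its promoter (chr7:80918822-80919669) had H3K27ac fold enrichments of 3.18, 3.07 and 2.36 in DMSO and kept H3K4me2 and H3K4me3 in all 6 libraries, while H3K4me1 went from 3 libraries to 1. The 4 others lay in its introns, and H3K4me1 stayed in all 6 libraries at 3 of them. Promoter regions were lost at EPHA4, an ephrin receptor (2.55, 2.16 and 1.92), where all H3K4 methylation stayed, and at SEMA6A (3.19, 2.57 and 3.03), where H3K4me1 went from 3 libraries to 1. EPHB2 and ROBO2, a receptor for Slit ligands, each had 1 intronic region.

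Among neuronal genes a promoter region was lost at GFRA3, a co-receptor for the neurotrophic factor artemin (chr5:138274373-138277347), with fold enrichments of 2.59, 2.46 and 2.82 and H3K4me1, H3K4me2 and H3K4me3 in all 6 libraries. At NCAM1, a neural adhesion molecule, a region over a coding exon (chr11:113220165-113224694) had 3.51, 2.97 and 2.44, and H3K4me1 went from 3 libraries to 0. NTRK3, the receptor for neurotrophin-3, had 2 intronic regions with H3K4me1 in all 6 libraries, and SNAP25, a protein of synaptic vesicle fusion, also had 2. GAP43, RBFOX1, ELAVL2 and NEFL had 1 each.

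Corepressor genes with a lost region were RCOR1, which encodes CoREST, PHF21A, a subunit of the LSD1 and CoREST complex, HDAC2, a histone deacetylase of it, and CBFA2T2, a member of the ETO family. Their highest DMSO fold enrichments were 2.59, 2.33, 2.72 and 2.43, and at RCOR1 H3K4me1 went from 2 libraries to 0. In the MYC network, a region 25.1 kb from MXI1, a MAX-binding antagonist of MYC (chr10:110180800-110182534), had 3.51, 3.36 and 2.74 and kept H3K4me1 in all 6 libraries. MLXIP, which encodes another factor of the network, had 1 region at which H3K4me1 went from 3 libraries to 0. CDKN1B, the inhibitor p27, and CCND3 were the cell cycle genes, each with 1 intronic region that kept H3K4me1 in all 6 libraries. Of the adrenergic factors MEIS2, EYA1 and SATB1 had 2 regions each, and MAOA, which degrades catecholamines, had 1. SMAD3 had 2 and MAML2 and YAP1 had 1 of the mesenchymal group.

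MYCN, counted in both the MYC and adrenergic lists, had 2 lost regions of an unlike kind. One spanned its promoter (chr2:15939196-15946398, 7203 bp) and the other lay 37.1 kb away (chr2:15980677-15987717, 7041 bp). Their fold enrichments were 1.17, 1.12 and 1.10 at the promoter and 1.16, 1.12 and 1.11 at the second, against a median of 2.41 for all lost regions. H3K4me1 went from 3 libraries to 0 at both. Only 3 of the 2715 lost regions had a mean fold enrichment under 1.5, these 2 and 1 near CYRIA, all on chromosome 2. MYCN is amplified in this line. The input level implied by pileup over fold enrichment was 779, 964 and 827 fragments at the promoter region in DMSO libraries 1 to 3, against medians of 7.87, 8.76 and 8.04 over all lost regions, and the part of copy number in these calls was not tested. With 5 Mb either side of MYCN left out there were 2696 lost regions, and the difference in H3K4me1 share was -17.8 points as before.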

How the data were processed

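ChIP-seq of 5 histone marks had given 30 peak lists, 3 for each mark in KELLY cells with DMSO and 3 with doxycycline for 72 h, grouped by their labels. The 4 inputs entered only through the calls. As the study's methods and the file headers state, the authors aligned reads to hg38, kept a mapping quality of 30 or more and called every library separately in MACS2 2.1.1.20160309, in broad mode for H3K27ac, H3K4me1 and H3K27me3 (q 0.05, weaker parts linked at q 0.1) and in narrow mode for H3K4me2 and H3K4me3 (p 1e-5), where the methods state a q of 0.05 for all. Replicate 3 appears to share the input of replicate 1 in both treatments. The deposited values of each peak are its pileup (signal), fold enrichment (a ratio of ChIP to local input), −log10 q-value and −log10 p-value, all written by the peak caller the authors ran. They depend on depth and input, so they were used to describe regions and, between treatments, only as lost minus retained regions. Calling depth was lower in doxycycline, and its part in the calls was not tested.

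Regions were merged as described, annotated with GENCODE release 44 of hg38 (19962 protein-coding gene names), and a mark was present where a peak shared 1 bp. A region in several kinds of place was counted at the first of promoter, coding exon, untranslated exon, other exon, intron and intergenic. Shares were tested over all 20 ways of assigning the 6 libraries to treatments (exact permutation, two-sided), adjusted by Benjamini-Hochberg over the 4 marks. Same-numbered libraries deviated together (correlations over 0.1 in 3 of 3 pairs) for H3K4me2 (0.116 to 0.309) and H3K4me3 (0.156 to 0.379), not for the other marks. Python 3.11.15, numpy 2.4.6, pandas 2.3.3, scipy 1.17.1 and pysam were used, and bedtools 2.31.1 gave the same merged regions. On simulated lists with 200 planted losses, 200 were recovered. These lists were copies of peaks of 1 DMSO list with shifted ends and no other missing peaks, so this checks the interval handling only. Named regions were the 10 with the highest mean percentile of H3K27ac −log10 q over DMSO lists, up to 5 per further mark lost or gained, up to 5 promoters, the 10 genes nearest to most lost regions, and members of 8 gene lists. The members, lists and rules were chosen with earlier results of these data known. Sequences are from hg38. Alternatives were other peak thresholds, lists of equal length, other overlaps, promoters and start sites, left-out libraries, a replicate block and leaving out MYCN. Some named items are not reported here.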

Additional observations from a re-analysis of the deposited data

How the results depend on the processing

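The direction of the H3K4me1 and H3K4me2 differences held under all alternatives run (16 settings for the shares at lost regions, 19 relative to retained regions, 12 for the H3K4me1 fold enrichment), with sizes that moved. Among these settings the replicate block changes only the p-value and could not turn a direction. Leaving out libraries could not turn a direction either where every doxycycline library lay below every DMSO library. This was so for H3K4me1 at lost regions and relative to retained regions, for its fold enrichment, and for H3K4me2 relative to retained regions. The filter of mark peaks at −log10 q 3 or more left the H3K4me2 differences at their main values (-20.3 and -19.7 points). Exact permutation of 3 libraries against 3 cannot pass 0.05, so none of these is a call. Requiring mark peaks to cover at least 50% of a region gave -29.1 points for H3K4me1, -9.18 for H3K4me2 and -0.39 for H3K4me3 at lost regions, and regions from H3K27ac peaks of −log10 q 3 or more gave -8.27, -24.7 and -3.14. The number of lost regions was 1370 with H3K27ac peaks of −log10 q 3 or more, 1720 with lists of equal length and 317 when only DMSO peaks were so filtered, against 2715. Leaving out libraries gave 3066 to 6104, since fewer libraries then have to meet the rule. The H3K4me3 change relative to retained regions ran from -2.16 to 1.13 points over left-out libraries and turned sign without replicate 1 (0.31), DMSO replicate 3 (1.13), doxycycline replicate 1 (0.68) and doxycycline replicate 2 (0.49). The H3K27me3 difference at lost regions turned sign with mark peaks of −log10 q 3 or more (0.25), mark lists of equal length (0.44), H3K27ac lists of equal length (0.078) and peaks covering at least 50% of the region (0.26), and ran from -0.39 to 0.50 over left-out libraries (0.50 without replicate 3, 0.26 without DMSO replicate 3, 0.18 without doxycycline replicate 3). Relative to retained regions it turned sign with 50% coverage (0.094). The cause was not tested.

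The share at promoters was 9.10% with a 2.5 kb promoter, 11.01% with start sites of all gene types, 3.61% by the centre base, 8.25% with H3K27ac peaks of −log10 q 3 or more and 5.85 to 7.30% without one replicate. The share in introns was 43.8% with a 2.5 kb promoter, 55.1% by the centre base, 41.5% with the q filter, 43.5% with lists of equal length and 46.2 to 49.4% without one replicate. The intergenic share was 32.6 to 35.2% without one replicate.

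With the replicate block, exact sign flips within the 3 same-numbered pairs gave p = 0.25, the smallest possible, for the differences of -17.8 points in H3K4me1, -20.3 in H3K4me2 and -1.38 in H3K4me3 at lost regions, and p = 1 for H3K27me3 (-0.061). The block changed no call. The part of the lower calling depth in doxycycline was not tested.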
